A study of Mus musculus with 2 samples.

Results

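The R-spondin receptors Lgr4, Lgr5 and Lgr6 and the membrane ubiquitin ligases Rnf43 and Znrf3 were read in 2 cell populations sorted from mouse dorsal skin. Members were all non-control probes that the array files name by one of these 5 symbols or a synonym. They came to 11 probes for 5 of 21389 genes named on the array, and none was found by a synonym alone. Lgr6-high cells were the fraction with bright green fluorescent protein from Lgr6-EGFP-ires-CreERT2 knock-in mice. Lgr5-high cells were the corresponding bright fraction from Lgr5-EGFP-ires-CreERT2 knock-in mice. In both lines the reporter was driven by the promoter of the gene it is named for, and both also carried the CreERT2 recombinase. The labels name no treatment and give no age, sex or zygosity, and each sort pooled 3 mice. RNA of both populations was hybridised together on 2 two-colour Agilent arrays. On array 1 Lgr6-high RNA carried Cy5 and Lgr5-high RNA Cy3, and on array 2 the dyes were exchanged.

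LGR4, LGR5 and LGR6 are receptors with a large leucine-rich extracellular domain that binds the secreted R-spondins. RNF43 and ZNRF3 are transmembrane RING ligases that mark Frizzled receptors for removal from the cell surface, and an R-spondin bound to an LGR takes these ligases away, so that more Frizzled stays available to Wnt ligands. In mouse skin Lgr5 is known as a marker of cycling stem cells of the bulge and hair germ. Lgr6 is known as a marker of cells in the isthmus above the bulge, while Lgr4 is expressed broadly in epithelia. Rnf43 and Znrf3 are themselves Wnt target genes in the intestine.

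The probes are shown because each reads 1 stretch of a transcript, and the results below differ between probes of the same gene. All are 60 bases long, have a single spot per array and are placed by the files on mouse build mm9. Of the 11 probes, 7 were designed on RefSeq transcripts and 4 on other cDNA clones. The first line below is the Lgr6 RefSeq probe in full, from base 2711 of NM_001033409, which holds no stop codon in any of its 3 reading frames. The second is a Lgr4 probe in full, from base 779 of NM_172671. It covers 60 bases of transcript but 1387 bases of genome, so it crosses a splice junction. The other lines give the first 30 bases of the brightest or next probe of each gene.
Lgr6, chr1:136883782-136883841, minus strand: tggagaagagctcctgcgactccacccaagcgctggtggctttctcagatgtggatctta
Lgr4, chr2:109829910-109831296, plus strand: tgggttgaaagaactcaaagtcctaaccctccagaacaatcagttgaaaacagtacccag
Lgr5, chr10:114888847-114888906, minus strand: aaacaccgcttgtatcatttgttcagctaa
Lgr5, chr10:114900686-114900745, minus strand: acctctagtgcttatatagaaacttgtgtg
Lgr6, chr1:136880538-136880597, minus strand: gtctctgttctacatatttggatctgacaa
Lgr4, chr2:109852832-109852891, plus strand: agtcagaagtctgtgaagaatgggagccta
Rnf43, chr11:87548944-87549003, plus strand: atgggtatttatatctgaaccagacagaaa
Znrf3, chr11:5176747-5176806, minus strand: ctgacctgcatttttctattccttacataa

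No gene annotation of build mm9 was used, so exon, intron and UTR are not assigned here. The Lgr4 probes at bases 3477 and 4652 of NM_172671 lie 1175 bases apart both on the transcript and on the genome, so no intron separates them. The second Lgr5 probe, designed on clone AK047873, lies 11839 bases upstream of the RefSeq probe on the genome. It and the RefSeq probe have a stop codon in all 3 frames. The longest run of bases shared by probes of different members was 10. GC content ran from 26.7% for the Rnf43 clone probe to 55% for the Lgr6 RefSeq probe.

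Across each array Cy3 was the more sensitive dye. In the Lgr6-high channel 15.3% of probe spots (Cy5, array 1) and 33.3% (Cy3, array 2) were well above background by the scanner software's call, against 31.6% (Cy3, array 1) and 16.2% (Cy5, array 2) in the Lgr5-high channel. All 8 keratinocyte markers were well above background in both populations on both arrays. That is no measure of purity, and markers of other skin cells are given further below. Ratios below are log2 of Lgr6-high over Lgr5-high after background correction and loess normalisation, as mean ± SD of the 2 arrays. Whether separate RNA pools went onto the arrays is not stated, so they count as 1 RNA pair read with both dye orientations. No test between the populations was possible, and an SD carries dye and hybridisation spread only. A probe passed the filter if 1 population was well above background on both arrays. A gene was called if its brightest passing probe had a mean ratio of at least 1 (2-fold) in size and moved the same way by at least 0.5 on array 1 and on array 2.

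Of the 5 genes, 3 passed the filter, each by 1 probe, and 1 of these, Lgr5, was called, in the direction of Lgr5-high cells. Over the series 6195 genes passed, of which 4.76% were called higher in Lgr5-high cells and 7.28% higher in Lgr6-high cells. These are 295 and 451 genes. The split between directions moved with the scaling: the genes lower and higher in Lgr6-high cells numbered 151 and 124 with the background model fitted on all spots, 204 and 212 when no background was subtracted, 57 and 134 when arrays were centred on the median, and 958 in each direction with the scanner software's ratios. Lgr6 and Znrf3 did not pass. Of the 11 probes, 5 were not well above background in any channel, and this held for 64.3% of all probes. In Cy3 5 of the 11 were well above background on both arrays, against 27.9% of all probes, and in Cy5 1 of 11, against 12.5%.

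**Figure D1:**
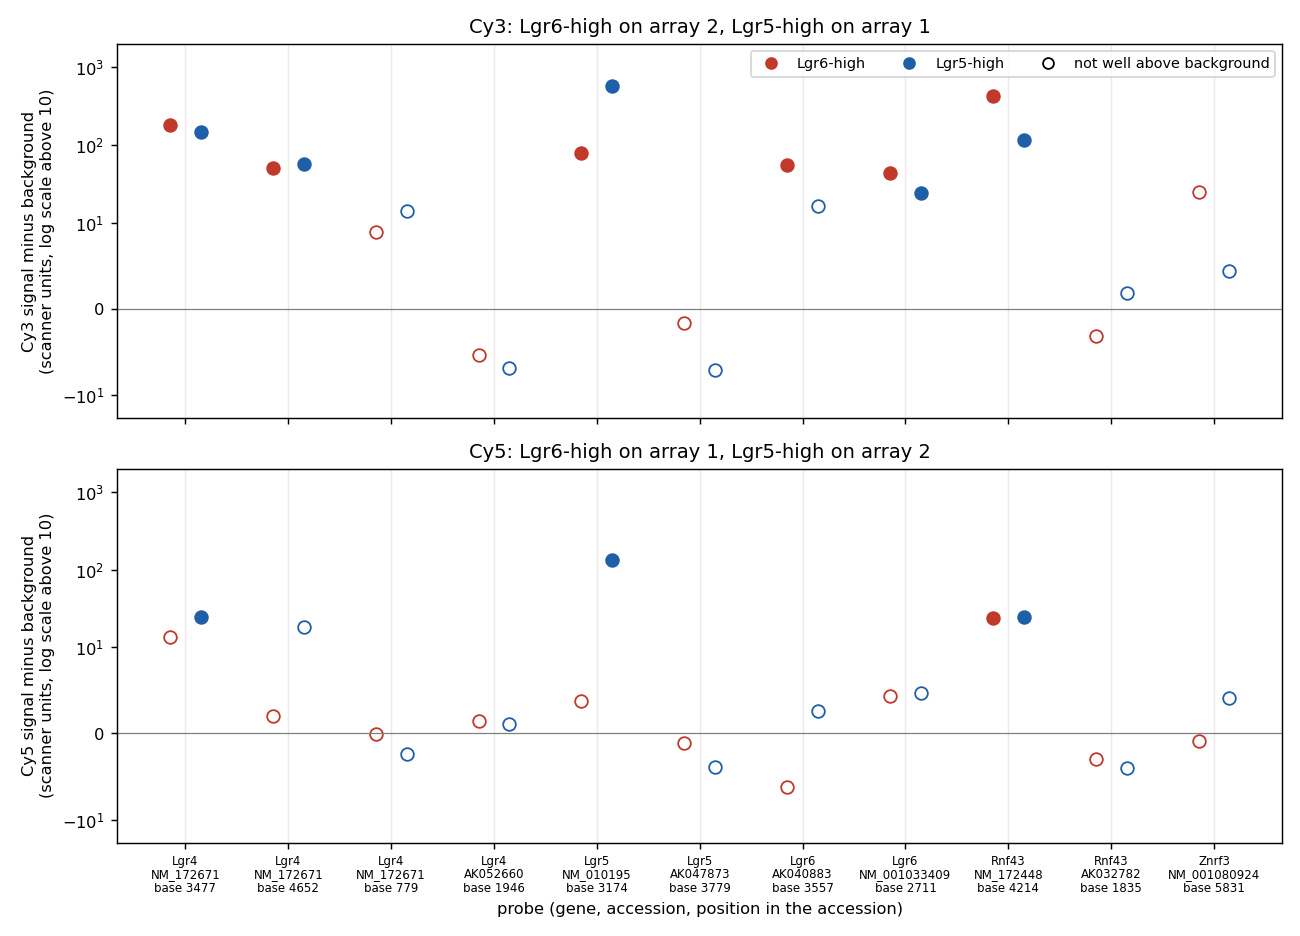
Background-subtracted signal of each of the 11 probes in scanner units (symmetric log axis, linear below 10), with Cy3 in the upper and Cy5 in the lower panel, Lgr6-high cells in red and Lgr5-high cells in blue. Open circles are spots not well above background. Within a dye the populations come from different arrays, and the Lgr5 RefSeq probe stands at 78.9 for Lgr6-high cells, against 568 for Lgr5-high cells, in Cy3.

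Lgr5, the receptor that marks bulge and germ stem cells, was lower in Lgr6-high cells by its RefSeq probe and was not detected by its clone probe. In Cy5 the background-subtracted signal of the RefSeq probe was 3.75 scanner units in Lgr6-high cells on array 1, against 133 in Lgr5-high cells on array 2. In Cy3 it was 78.9 in Lgr6-high cells on array 2, against 568 in Lgr5-high cells on array 1. Lgr6-high cells were therefore dim in both dyes, and they were well above background only in Cy3. The mean spot signals behind these values were 153 ± 1.99 and 171 ± 3.42 in Lgr6-high cells on arrays 1 and 2, against 658 ± 10.8 and 283 ± 4.20 in Lgr5-high cells (SE over the 61 to 63 pixels of the spot). These spot means include a local background that differed between the dyes, at 124.5 to 134.5 units in Cy5 and 49 to 55 in Cy3 beside the member spots. The background-subtracted signals given here are the scanner software's own. For this probe they are lower than the spot mean minus the local background, so the software took off more. The ratios after loess start from the local background instead, so signals and ratios rest on different backgrounds.

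The log2 ratio of this Lgr5 probe was -1.74 on array 1 and -1.92 on array 2, a mean of -1.83 ± 0.12, or 3.56-fold lower in Lgr6-high cells. Of the 6195 genes compared, 50 had a lower mean ratio, which is 0.807%. The size of the difference depended on how background was treated. The mean was -1.19 when no background was subtracted. It was -1.01 with the background model fitted on all spots, where array 2 gave -0.28 and Lgr5 was no longer called. The scanner software's own ratio, formed from its processed signals with its own background and no offset, was -4.76 and -3.77 on arrays 1 and 2. Its processed signals were 87.0 and 188 in Lgr6-high cells, against 2351 and 2561 in Lgr5-high cells. With limma's moderated test across all genes, used as an alternative, the Benjamini-Hochberg adjusted p of Lgr5 was 9.18e-05, and it measures the spread between hybridisations only. Lgr5-high cells were sorted by a reporter driven by the Lgr5 promoter, and the probe passed the filter through those cells alone. This p is therefore no independent support for a difference. The clone probe of Lgr5 had background-subtracted signals of -1.12 and -1.66 in Lgr6-high cells, against -7.13 and -3.93 in Lgr5-high cells, and a ratio of 0.07 ± 0.04. It was at background everywhere and adds no reading of Lgr5. As bulk populations were measured, fewer Lgr5-expressing cells and less Lgr5 RNA per cell cannot be told apart. The labels do not say where the reporter cassette lies relative to either probe, so whether transcripts of the knock-in allele are read was not tested.

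Lgr6, whose reporter defined the other sort, was near the detection limit on both of its probes. The clone probe at chr1:136880538-136880597 was the brighter. In Cy3 its background-subtracted signal was 55.7 in Lgr6-high cells on array 2, where it was well above background, against 16.3 in Lgr5-high cells on array 1, where it was not. In Cy5 it was -6.18 in Lgr6-high cells and 2.57 in Lgr5-high cells, both at background. The Cy3 reading was thus higher in Lgr6-high cells and the Cy5 readings gave no order. The RefSeq probe was well above background in Cy3 in both populations, at 43.8 in Lgr6-high cells on array 2, against 23.8 in Lgr5-high cells on array 1. In Cy5 it had 4.35 in Lgr6-high cells and 4.69 in Lgr5-high cells, not well above background in either.

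Set side by side within Cy3, the Lgr6 RefSeq probe was 1.84-fold brighter in Lgr6-high cells. Cy3 was brighter in general on array 2, however, by 0.671 on the log2 scale at the median of the 12380 probe spots detected in Cy3 on both arrays. Relative to that median the difference of the RefSeq probe was 1.16-fold, and 41.2% of those spots had a ratio at least as high. The brighter clone probe has no such value, because in Cy3 it was well above background in Lgr6-high cells and not in Lgr5-high cells. Within the arrays, the clone probe had log2 ratios of -0.05 and 0.15 on arrays 1 and 2, and the RefSeq probe -0.08 and 0.12. The array on which Lgr6-high RNA carried Cy3 thus gave the positive ratio for both probes, and the sign turned with the dye. The mean ratios were 0.05 ± 0.14 for the clone probe and 0.02 ± 0.14 for the RefSeq probe. The mean of the clone probe was slightly negative without background subtraction and with the background model fitted on all spots. The scanner software's ratios for the clone probe were -1.04 and 1.67 on arrays 1 and 2, with an error of 1.11 and 0.838 by its own model. A difference in Lgr6 between the populations was not detectable with these probes.

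Lgr4, the broadly expressed receptor, had 4 probes, of which 1 passed the filter. That probe, at chr2:109852832-109852891, had a background-subtracted Cy3 signal of 179 in Lgr6-high cells on array 2, against 149 in Lgr5-high cells on array 1. In Cy5 it had 13.6 in Lgr6-high cells, not well above background, against 24.8 in Lgr5-high cells, which was. The dyes disagreed on which population was brighter before arrays were brought to a common scale. The ratio was -0.29 on array 1 and -0.06 on array 2, a mean of -0.17 ± 0.16, little more than its own spread. Its mean was negative under each of the background and scaling settings tried. With median centring in place of loess, however, it was -1.27 on array 1 and 1.11 on array 2.

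The Lgr4 probe 1175 bases further downstream was dimmer and did not pass the filter. It had 51.1 in Lgr6-high cells against 57.3 in Lgr5-high cells in Cy3, and 2.01 against 18.3 in Cy5. Its ratio was -0.32 and -0.25 on arrays 1 and 2, a mean of -0.28 ± 0.05, in the direction of the first probe. The scanner software's ratio for it was larger, at -2.42 and -0.82. Its array 1 value set a processed Cy5 signal of 62.3 against a processed Cy3 signal of 334, and that Cy5 spot was not well above background. The splice-crossing probe and the probe on clone AK052660 were not well above background in any channel, with ratios of -0.04 ± 0.18 and 0.09 ± 0.19. Of the 4 Lgr4 probes, those toward the end of NM_172671 were thus the ones detected.

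Rnf43, a ligase that lowers Frizzled at the cell surface, was the one member above background in both populations on both arrays. Its RefSeq probe at chr11:87548944-87549003 had a Cy3 signal of 432 in Lgr6-high cells on array 2, against 117 in Lgr5-high cells on array 1. In Cy5 the values were 23.5 in Lgr6-high cells on array 1 and 24.2 in Lgr5-high cells on array 2. The Lgr6-high cells were clearly brighter in Cy3, and in Cy5 the populations could not be separated before scaling. Relative to the median of all detected spots of the same dye, Rnf43 was 2.32-fold higher in Lgr6-high cells in Cy3 and 1.40-fold higher in Cy5. In Cy3 12.8% of detected spots, and in Cy5 30.7%, had a ratio at least as high. Within the arrays its ratio was 0.23 on array 1 and 0.61 on array 2, a mean of 0.42 ± 0.27. After loess it was positive on both arrays and below the 2-fold call, and 21.1% of the genes compared had a higher mean. With median centring in place of loess it was -0.78 on array 1 and 2.10 on array 2. The scanner software's ratios were 0.51 and 1.26, with an error of 0.258 and 0.264. Limma's adjusted p was 0.214 for Rnf43 and 0.629 for Lgr4. A Rnf43 probe on clone AK032782 was at background in every channel, with a ratio of 0.02 ± 0.01.

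Znrf3, the close relative of Rnf43 with the same role, had 1 probe, at chr11:5176747-5176806, and it was not well above background in any channel. In Cy3 it had 24.6 in Lgr6-high cells on array 2, against 4.36 in Lgr5-high cells on array 1. In Cy5 it had -0.904 in Lgr6-high cells and 4.05 in Lgr5-high cells. The one value that stood out was the Cy3 signal of Lgr6-high cells, and the Cy5 values lay on the other side. The ratio was -0.04 and 0.01 on arrays 1 and 2, a mean of -0.02 ± 0.03. At so low a signal the offset of 50 holds ratios near 0, so this SD is no measure of precision for Znrf3. The same holds for the SDs of the other probes that did not pass the filter.

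**Figure D2:**
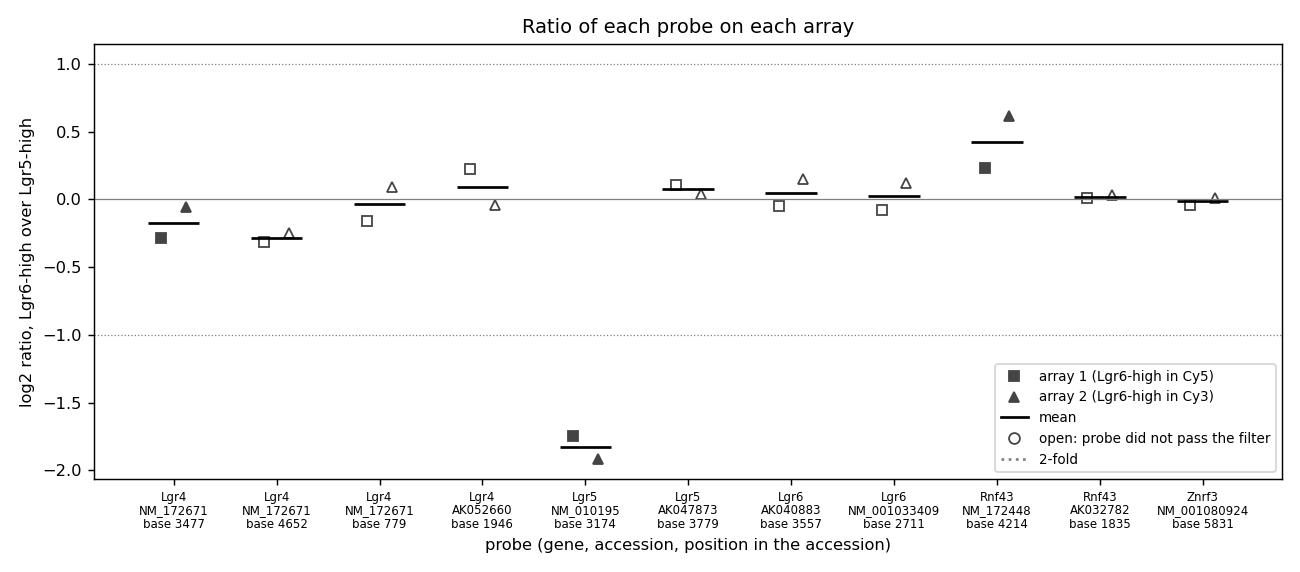
Log2 ratio of Lgr6-high over Lgr5-high cells for each of the 11 probes on array 1 (squares) and array 2 (triangles), with the mean as a bar and 2-fold as dotted lines. Filled symbols are the 3 probes that passed the filter. The Lgr5 RefSeq probe lies at -1.74 and -1.92 and all other values lie between -0.32 and 0.61.

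Ordered by the mean ratio of their brightest probe, the genes ran Lgr5, Lgr4, Znrf3, Lgr6 and Rnf43. Lgr5 stood apart from its neighbour Lgr4, at -1.74 and -1.92 against -0.29 and -0.06. Lgr4 lay below Znrf3 on each array, by less than 0.3 on array 1 and less than 0.1 on array 2. Znrf3 and Lgr6 did not pass the filter, and their places in this order carry no weight. Rnf43 lay above Lgr6 on each array, at 0.23 and 0.61 against -0.05 and 0.15. Turning the dyes changed the sign for Lgr6, Znrf3, the splice-crossing Lgr4 probe and the Lgr4 clone probe. The other 6 of the 11 probes kept 1 sign on both arrays, among them all 3 that passed the filter. Over all compared genes, which all passed, 72.5% kept it. These signs are those after loess. With median centring the passing probes of Lgr4 and Rnf43 changed sign between the arrays, while Lgr5 had -3.15 and -0.67.

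**Figure D3:**
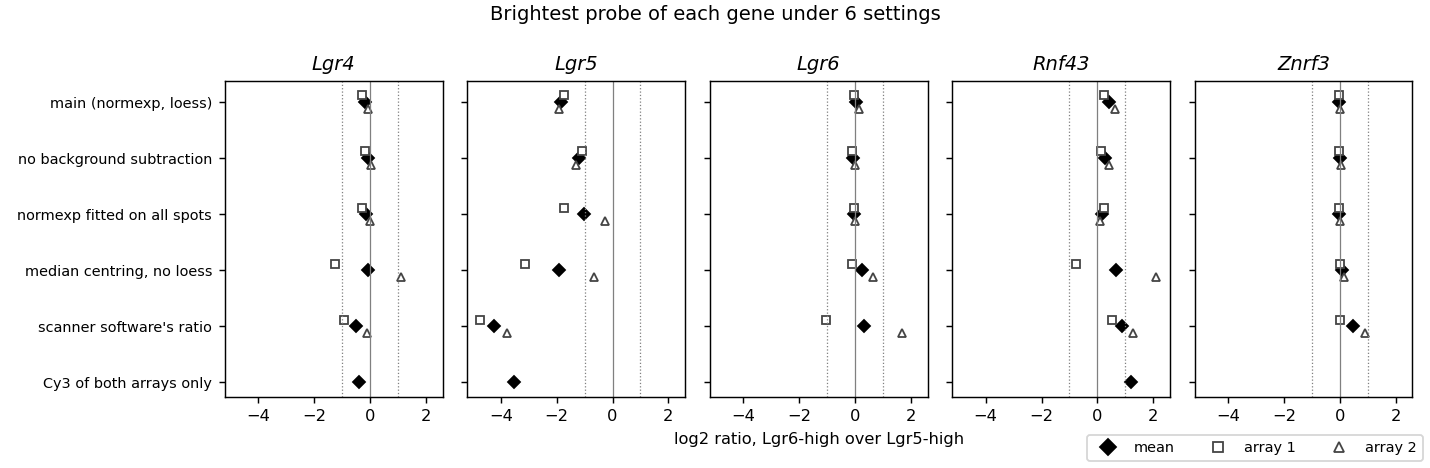
Log2 ratio of Lgr6-high over Lgr5-high cells for the brightest probe of each gene under 6 settings of background and scaling, with array 1 as squares, array 2 as triangles and the mean as diamonds (dotted lines at 2-fold). The Cy3 row sets Lgr6-high on array 2 against Lgr5-high on array 1 and is empty where 1 of these was not well above background. The mean of Lgr5 lies between -4.26 and -1.01 throughout, and the largest means of Lgr6 and Znrf3, 0.32 and 0.46, are those of the scanner software's ratio.

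The genes with the pattern most like Lgr5, by the distance over 3 numbers (the ratio on each array and the mean log2 intensity), were Rhoc, Galnt14, Krt71, Fbln2 and Rcn3. Rhoc encodes a small GTPase (ratio -1.93 ± 0.01) and Galnt14 an enzyme of O-linked glycosylation (-1.88 ± 0.32). Krt71 is an inner root sheath keratin (-1.76 ± 0.33), Fbln2 an extracellular matrix protein (-1.78 ± 0.13) and Rcn3 a calcium-binding protein of the secretory pathway (-1.67 ± 0.24). Their distances to Lgr5 ran from 0.201 to 0.258. The nearest to Lgr4 were Tada2a, Enah, Lrrc42, Rbbp5 and Poldip2, at distances of 0.0282 to 0.0573. The nearest to Rnf43 were LOC100046483, Tut1, Grwd1, Ppil4 and Foxq1, at 0.0999 to 0.126. With 2 arrays this likeness is a description of 3 numbers, and genes with small ratios have many near neighbours.

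The ligands and partners of the receptors were read from lists. None of Rspo1, Rspo2, Rspo3 and Rspo4, the 4 R-spondins, passed the filter. Of 7 proteins reported to bind R-spondins or LGRs, 5 were compared and 1 was called. This was Tnfrsf19 (Troy), a tumour necrosis factor receptor family member and Wnt target that associates with LGR5 in the intestine. Tnfrsf19 had a ratio of 1.95 on array 1 and 2.68 on array 2, 4.99-fold higher in Lgr6-high cells on average, with Lgr5-high cells above background on 1 array. The syndecan Sdc1, a heparan sulphate proteoglycan and the brightest gene of the list, had 0.92 ± 0.22 and was not called. Gpc3 and Ndp did not pass. The median of the 5 was 0.77, against -0.045 over all compared genes.

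Wnt receptors and ligands held 2 calls each. Of 12 Frizzled and Lrp genes 5 were compared, and Fzd2 (-1.31 ± 0.18) and Fzd1 (-1.16 ± 0.07) were lower in Lgr6-high cells. Both lost their calls without background subtraction, with the background model fitted on all spots and with median centring. Fzd10, the brightest receptor not called, had 0.96 ± 0.34, and the median of the 5 was -0.24. Of 19 Wnt genes 6 were compared. Wnt10a (2.37 ± 0.28) and Wnt3 (2.02 and 1.99 on arrays 1 and 2) were higher in Lgr6-high cells, Wnt6, an epidermal Wnt ligand, had 0.31 ± 0.13, and the median was 0.80. Of 9 genes of beta-catenin and its destruction complex 3 were compared and none was called, with Csnk1a1 (casein kinase 1 alpha) the brightest at 0.50 ± 0.47.

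Called Wnt target genes lay in both directions. Axin2, the usual Wnt feedback reporter, did not pass the filter, nor did Nkd1, Nkd2, Sp5, Notum or Ascl2. Of the 4 target and feedback genes compared, Apcdd1, a membrane inhibitor of Wnt signalling (1.19 ± 0.28), and Myc, a transcription factor of cell growth (1.18 ± 0.22), were called toward Lgr6-high cells. The cyclin Ccnd1 was lower in them (-1.30 ± 0.29), and Cd44, a hyaluronan receptor, had 0.80 ± 0.24. Tcf7l1, a repressor of Wnt targets in bulge cells, was the 1 TCF/LEF factor of 4 compared, at -1.26 ± 0.07. Of 14 genes on the list of Wnt antagonists, 3 were compared. Sostdc1, which binds BMP and Lrp6 (-2.15 ± 0.52), and Sfrp1, which binds Wnt proteins (-1.01 ± 0.01), were lower in Lgr6-high cells, while Dkk3 had -0.59 ± 0.22. Apcdd1, Myc, Ccnd1, Tcf7l1 and Sfrp1 lost their calls without background subtraction, with the background model fitted on all spots and with median centring. None of the 5 other leucine-rich repeat receptors (Fshr, Lhcgr, Tshr, Rxfp1 and Rxfp2) passed the filter. Of 9 other ligases of the Rnf43 type, 3 were compared and none was called, and Rnf215, the brightest, had -0.53 and 0.63 on arrays 1 and 2.

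In all, 30 of 93 pathway genes entered the comparison, and 11 were called, 5 higher and 6 lower in Lgr6-high cells. That is 36.7% of those compared, against 12% over all genes in either direction. The lists were chosen with earlier results of these data known, so the higher share is not independent of the data. All 11 kept the sign of their mean under each background and scaling setting. Of them, 4 stayed called when no background was subtracted, 3 with the background model fitted on all spots and 2 after centring on the median. Over all genes the calls toward Lgr6-high and toward Lgr5-high cells also fell, to 212 and 204, 124 and 151, and 134 and 57. Sostdc1 alone stayed called under each of these settings. Fzd1, Tcf7l1 and Sfrp1 were well above background on 1 of the arrays in Lgr6-high cells, and Tnfrsf19 and Wnt3 on 1 in Lgr5-high cells. With both populations required to be well above background on both arrays, 6 of the pathway genes were called. Over all genes 345 were then called toward Lgr6-high cells and 221 toward Lgr5-high cells. How many genes met this stricter filter is not given here, so these counts cannot be set against the shares of 36.7% and 12%.

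**Figure D4:**
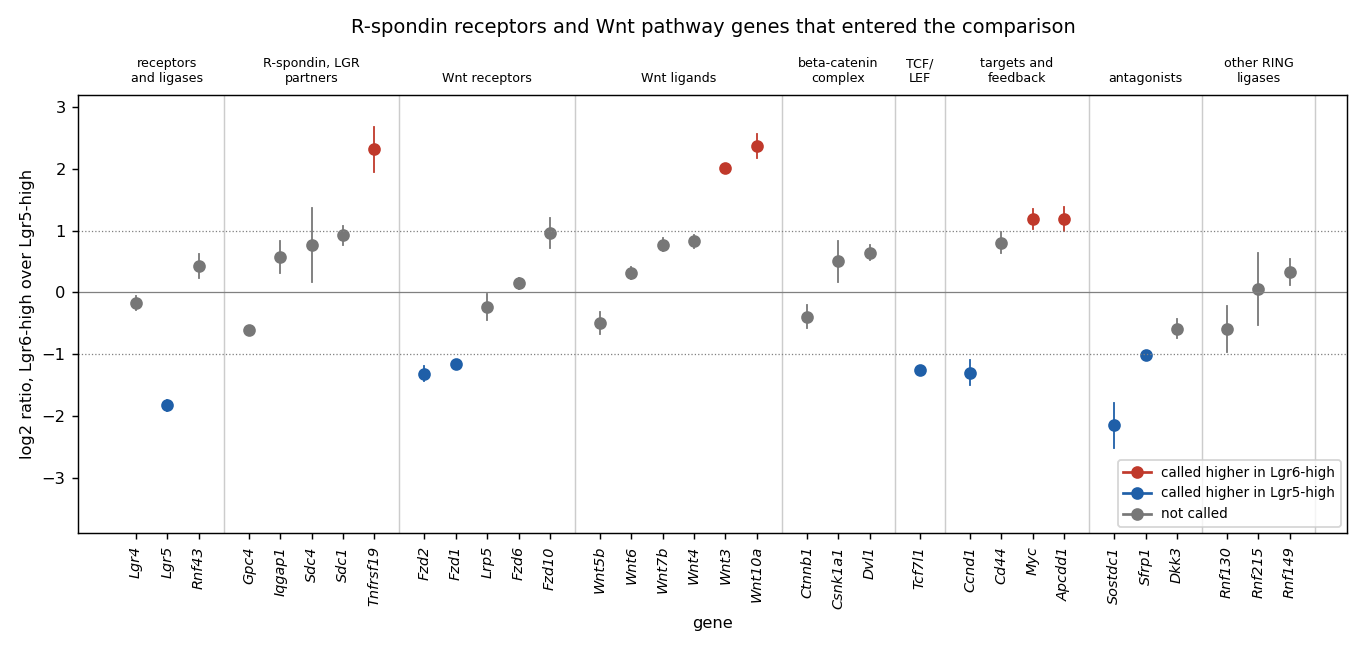
Log2 ratio of Lgr6-high over Lgr5-high cells for the 3 receptors and ligases that passed the filter and the 30 pathway genes compared, grouped by role. Dots are means and lines join the values of the 2 arrays. Red marks genes called higher in Lgr6-high cells, blue those called higher in Lgr5-high cells and grey those not called. Lgr5 lies with Sostdc1 below -1.5, and the means of Tnfrsf19 and Wnt10a, 2.32 and 2.37, are the highest.

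Markers of the sorted cells and of other skin cells differed between the same populations. Of the 8 keratinocyte markers 4 (Itga6, Cdh1, Perp and Dsp) were called higher in Lgr6-high cells, and the list summed to 235200 in Lgr6-high cells, against 62310 in Lgr5-high cells, on array 1. On array 2 the sums were 124400 in Lgr6-high cells and 127100 in Lgr5-high cells, so the order turned with the dye, as did the sign of the bright keratins Krt5 (1.82 and -0.15 on arrays 1 and 2) and Krt14 (2.24 and -0.10). Of 6 fibroblast markers 4 were called lower in Lgr6-high cells, and Col3a1, Dcn and Lum were not well above background in Lgr6-high cells on either array. Pdgfra did not pass. The summed level of the list was 362 to 729 in Lgr6-high cells, against 1771 to 2990 in Lgr5-high cells. Of 6 endothelial markers 2 (Ramp2 and Egfl7) were called lower in Lgr6-high cells, with sums of 385 to 504 against 803 to 1006, and Pecam1, Cdh5, Kdr and Tek did not pass. Of 5 melanocyte markers Dct alone was compared and called lower, with sums of 314 to 401 against 440 to 623. The Schwann cell markers Pmp22 (2.72 and 2.48 on arrays 1 and 2), Mbp (1.85 ± 0.10) and Ngfr (1.42 ± 0.02) were called higher in Lgr6-high cells, and Sox10 did not pass. None of 6 leukocyte markers passed, yet their sums were 416 to 450 in Lgr6-high cells, against 432 to 454 in Lgr5-high cells. The sums count genes at background too. On array 2 the Lgr6-high sums of the fibroblast (362), endothelial (385) and melanocyte (314) lists were below that of the undetected leukocyte genes (416). On array 1 the fibroblast (729) and endothelial (504) sums were above it (450), and the melanocyte sum (401) was below. Col1a1, Col1a2 and Ramp2 were well above background in Lgr6-high cells on 1 of the arrays. The part of these cells in the ratios of Lgr5 and the Wnt genes was not tested. Of 8 bulge and germ markers, Lgr5 included, 5 were called lower in Lgr6-high cells. Sox9 (-0.23 ± 0.39) and Krt15 (1.95 and -0.12 on arrays 1 and 2) were not called, and Nfatc1 did not pass. Of 7 isthmus and infundibulum markers 5 were called higher, while Lrig1 had -0.01 ± 0.10 and Lgr6 itself did not pass. Over all compared genes 4.76% were called lower and 7.28% higher in Lgr6-high cells.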

How the data were processed

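Per the labels' protocols, sorted cells of 3 pooled mice gave Trizol RNA, of which 150 ng was labelled by linear amplification. The authors deposited, per array, spot and local background intensity in both channels, pixel counts, the scanner software's log10 ratio of Cy5 over Cy3 and its p-value, and flags. Per the file headers the software was Agilent Feature Extraction 10.5.1.1, and the submitters' processing notes name 9.5.3. The deposited value table holds the same log10 ratios, its sign turned on array 2, so both columns run Lgr6-high over Lgr5-high, with medians of 0.

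Each array had 43379 probe spots, 41174 probes, none saturated. Background was corrected with normexp (offset 50, limma 3.58.1, R 4.3.3) on the spot mean minus the median local background, fitted on spots without an outlier mark. Loess within arrays followed, controls at weight 0. Marked spots (139 and 204, none a member) were left out and replicate spots averaged. Channel levels summed over markers were scaled between arrays by Aquantile. Probes were named through RefSeq accessions, symbols or synonyms of a GRCm38.p6 table. The named genes were all member probes, the 5 nearest genes to each member that passed, and of each list every called gene and the brightest uncalled one. Members and lists were chosen with earlier results of these data known. The Cy3-only comparison was added after the data were seen. The calling rule and limma were tested on simulated data. Some members of the Schwann cell marker list, and its sum, are not reported here. Alternatives are in the closing section.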

Additional observations from a re-analysis of the deposited data

How the results depend on the processing

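The Lgr5 ratio of -1.83 kept its direction under all settings tried, while its size did not. It was -4.26 with the scanner software's ratios and the authors' value table, -3.52 from Cy3 alone (an alternative chosen after seeing the data), -1.19 without background subtraction, -1.01 with the background model fitted on all spots, and -0.88 as a mean over both probes. With the model fitted on all spots array 2 gave -0.28, so Lgr5 lost its call there. From 1 array alone it was -1.92 to -1.74. Lgr4 (-0.17) was -0.52 with the scanner's ratios or the value table and -0.40 from Cy3 alone. Rnf43 (0.42) was 0.89 with the scanner's ratios or the value table and 1.21 from Cy3 alone. Lgr6 (0.05) was 0.32 with the scanner's ratios or the value table and 0.26 with median centring. Znrf3 (-0.02) was 0.46 with the scanner's ratios or the value table and 0.082 with median centring. The causes were not tested beyond the settings' own construction. Single arrays gave -0.29 to -0.06 for Lgr4, -0.05 to 0.15 for Lgr6, 0.23 to 0.61 for Rnf43 and -0.04 to 0.01 for Znrf3.

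The numbers of genes called toward Lgr6-high cells and toward Lgr5-high cells (451 and 295) were 958 and 958 with the scanner's ratios or the value table, 212 and 204 without background subtraction, 124 and 151 with the model fitted on all spots, and 134 and 57 with median centring. Single arrays gave 434 to 611 and 315 to 471, with 471 from array 2. The pathway calls (11) were 19, 4, 3 and 2 in the same order of settings, 6 with both populations required above background, and 12 from either array alone. They were 10 with each gene read as the mean over its passing probes. Limma called 458 and 302. No paired analysis was possible because the samples form 1 group with no second group to pair; each ratio already pairs the populations within its array. Low signal limits Lgr6 and Znrf3, which did not pass the filter.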
